A study of Mus musculus with 12 samples.

Results

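Notch1 RNA set 3 leukemias apart from 3 others in a series of 12 mouse thymus libraries, and these 6 tumors are compared here. The series holds 9 T cell acute lymphoblastic leukemias (T-ALL) taken from the thymus of mice with doxycycline-induced expression of IL-7Rα (the ligand-binding chain of the receptor for interleukin-7), and 3 thymus libraries of healthy control mice. The labels give strain F5 and thymus for every library, and the same induced receptor for all 6 tumors compared here. The promoter and cell type that drive the construct, the age of the mice and the time on doxycycline were not stated in the labels used here. Whether the libraries come from different animals is not stated in the labels. The p-values here set the difference between the sets against the variation among libraries within a set. Part of that variation may be technical.

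The 6 tumors were chosen in 2 steps. The first kept the 6 of 9 tumors with at least 25% of estimated counts on mitochondrial genes, which are tumors 1 to 6 by their labels. In these the mitochondrial percentage ran from 31.6% to 69.3%, against 11.1% in the nearest tumor left out. The second divided them at a Notch1 value of 400 on a counts-per-million (CPM) scale, computed within nuclear protein-coding genes and called level below. Tumors 1, 2 and 6 lay above it and are called Notch1-high, and tumors 3, 4 and 5 lay below it and are called Notch1-low. The lowest tumor above the cut had a Notch1 level of 661 and the highest below it 143. Because the sets were selected on Notch1, its levels are a description and carry no test.

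Notch1 is a transmembrane receptor that ligands on neighboring cells activate. Gamma-secretase then frees its intracellular domain, which enters the nucleus and joins the DNA-binding protein RBPJ and Mastermind-like coactivators. In the thymus this signal commits progenitors to the T lineage and supports them until they pass the pre-T cell receptor checkpoint, after which it declines. Activating changes in NOTCH1 are among the most frequent lesions in human T-ALL. RNA levels do not show cleavage of the receptor, and the DNA sequence of Notch1 was not examined here.

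The libraries of the 6 tumors held 18431516 to 34769946 estimated counts, of which 3483218 to 13390032 fell on nuclear protein-coding genes, so 1 count stood for a level of 0.0747 to 0.287. T lineage RNA was present in all 6, with Trbc2, a T cell receptor beta constant gene, at levels of 292 to 871. Control levels were 24.8 to 32.0, and those of tumors 7 to 9 were 10.2 to 22.9. Libraries of these 2 kinds had counts on at least 98.4% of the 1412 odorant and vomeronasal receptor genes, a family that thymocytes are not known to use. The same percentage was 92.7%, 89.9% and 52.5% in Notch1-high tumors 1, 2 and 6, and 69.8%, 76.3% and 45.2% in Notch1-low tumors 3, 4 and 5. Tumors 1 and 2 thus carried the most of this background and tumor 6, also Notch1-high, nearly the least, as the bars of library measures show. The first principal component of all tested genes, 51.2% of the variance, put tumors 1, 2 and 4 on one side and tumors 3, 5 and 6 on the other, and so did not follow the Notch1 sets.

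**Figure D1:**
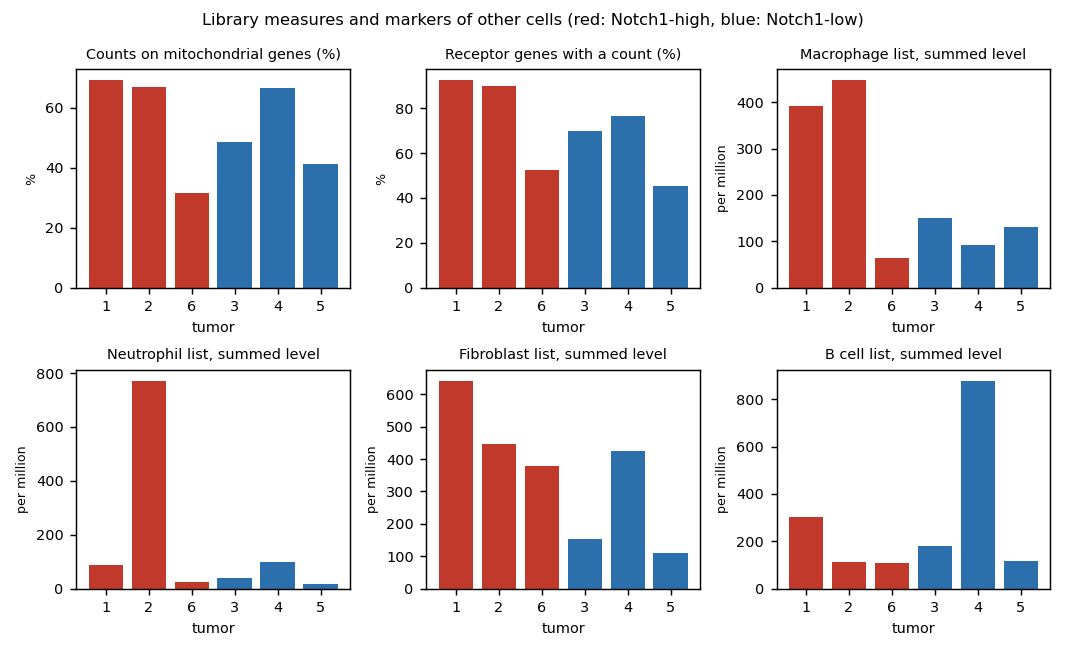
Bars give 2 library measures in percent and the summed level of 4 marker lists (CPM within nuclear protein-coding genes) in each of 6 tumors (red, Notch1-high tumors 1, 2 and 6; blue, Notch1-low tumors 3, 4 and 5). Tumor 6 has the lowest mitochondrial percentage (31.6%), and the neutrophil and macrophage sums are highest in tumor 2 (772 and 449).

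Notch1 levels were 661, 866 and 1787 in Notch1-high tumors 1, 2 and 6 (mean 1105 ± 600, SD, n = 3). They were 80.1, 143 and 63.7 in Notch1-low tumors 3, 4 and 5 (mean 95.6 ± 41.9, SD, n = 3). Controls had Notch1 at 45.1 to 70.4 and tumors 7 to 9 at 11.3 to 63.3, in libraries with the high background above. The gene (ENSMUSG00000026923.15) lies on the minus strand of chromosome 2 at 26457903 to 26516663 in GRCm38. Most of its counts fell on Notch1-201, the full-length coding transcript, whose levels were 605, 794 and 1642 in the high tumors and 67.3, 127 and 54.9 in the low ones.

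To set the receptors side by side per length, the deposited TPM of the longest coding transcript was rescaled so that the TPM of nuclear protein-coding genes had the same sum in each tumor. On this scale Notch1-201 had 48.9, 85.1 and 289 in tumors 1, 2 and 6, and 8.58, 16.6 and 8.61 in tumors 3, 4 and 5. Notch2-201 had 1.45 to 8.11 over the 6 tumors and Notch4-201 at most 1.52. Notch3-201 had 4.52, 15.0 and 45.6 in the high tumors and 0.684, 2.28 and 1.09 in the low ones. Notch1 therefore had the highest per-length value of the 4 receptors in each of the 6 tumors, the low ones included.

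Over all other genes, no difference between the sets passed edgeR's quasi-likelihood test. Of 20343 genes tested, 0 were higher and 0 lower in Notch1-high tumors at a Benjamini-Hochberg adjusted p below 0.05 (0% in each direction). At an unadjusted p below 0.05 there were 554 higher (2.72%) and 533 lower (2.62%), together 5.34% of the genes. The levels of the sets did not overlap for 1605 higher genes (7.89%) and 836 lower genes (4.11%). DESeq2, run as an alternative, called 81 of 19466 genes higher (0.416%) and 44 lower (0.226%), and 76 of those 81 and 23 of those 44 were protein-coding. That run started from 46745 genes with DESeq2's own filter in place of edgeR's. On those 46745 genes, without its filter on low counts, edgeR called 199 higher (0.426%) and 122 lower (0.261%). The number of calls thus moved with the filter as well as with the tool, and the leading genes below are given with both adjusted p-values. An exact permutation test of 3 against 3 samples cannot go below 0.1 two-sided and was not used for single genes.

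**Figure D2:**
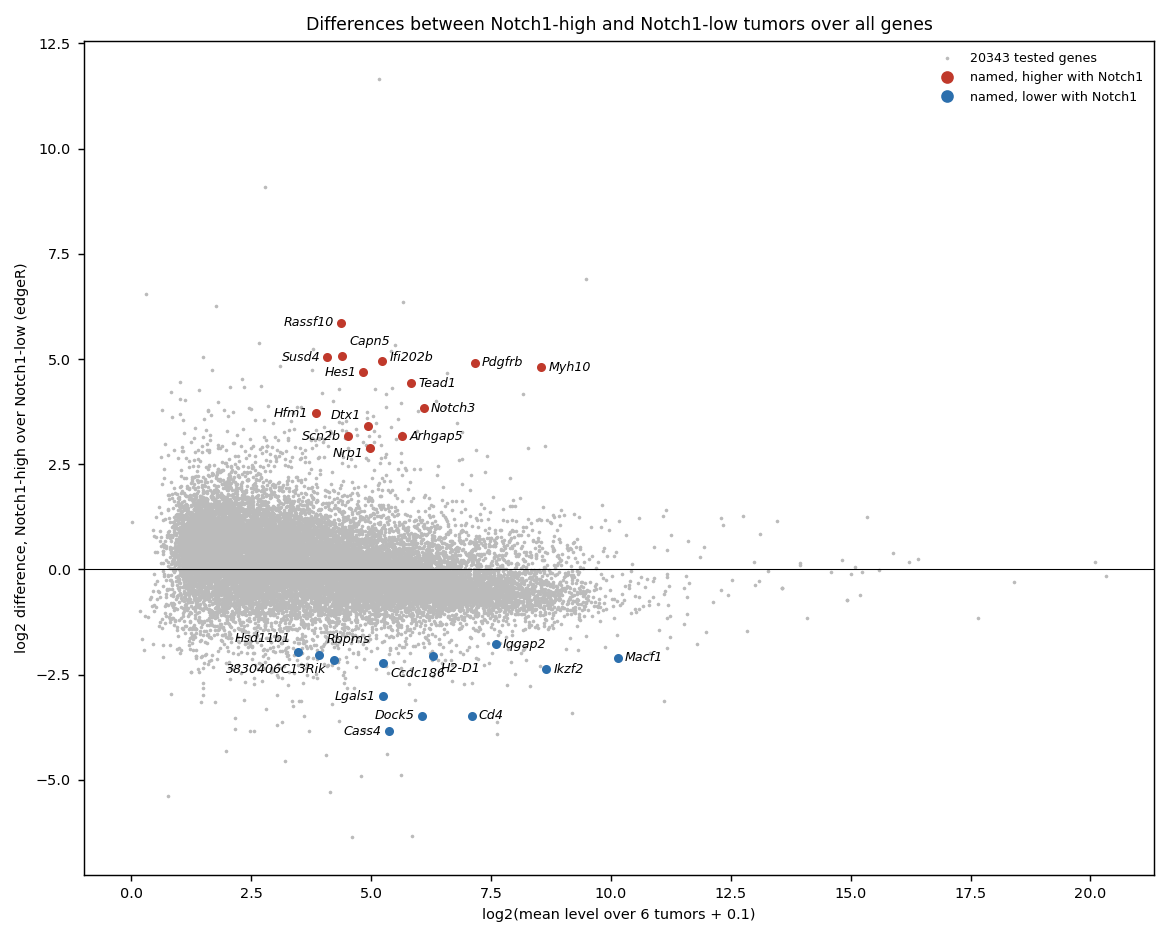
Each grey point is 1 of 20343 tested genes, with log2 of its mean level over 6 tumors plus 0.1 on the x axis and its edgeR log2 difference, Notch1-high over Notch1-low, on the y axis. Named genes such as Pdgfrb (4.92) and Cd4 (-3.47) lie at the edge of the cloud, and none passed edgeR's adjusted threshold.

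The 5 genes looked at first were a Notch receptor (Notch3), 2 genes that Notch signaling induces (Hes1 and Dtx1), the coreceptor Cd4 and the Ikaros family factor Ikzf2. They were chosen with earlier results of these data in view. All 5 had levels that did not overlap between the sets, with Notch3, Hes1 and Dtx1 high and Cd4 and Ikzf2 low where Notch1 was high. None passed edgeR's adjusted threshold, and 4 of the 5, all but Hes1, passed that of DESeq2.

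Notch3, a receptor whose gene is itself induced by Notch signaling in T cells, had levels of 47.3, 118 and 219 in tumors 1, 2 and 6, and of 4.54, 14.8 and 5.90 in tumors 3, 4 and 5. The lowest Notch1-high tumor had 3.19 times the level of the highest Notch1-low tumor. The log2 difference was 3.83 ± 0.72 (SE, edgeR adjusted p = 0.485, DESeq2 adjusted p = 1.07e-05). Against the pooled level per length of the odorant and vomeronasal receptor genes, Notch3 stood at 1.28, 3.77 and 22.7 times in tumors 1, 2 and 6, and at 0.277, 0.574 and 0.334 times in tumors 3, 4 and 5. In tumor 1 it therefore lay close to that background. Notch3 (ENSMUSG00000038146.7) lies at 32120820 to 32166852 on chromosome 17.

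Hes1, a transcriptional repressor and one of the best known direct Notch targets, had levels of 82.0, 31.0 and 53.7 in tumors 1, 2 and 6. It had 0 counts in tumor 3, which allows a level of up to 0.634 for counting error, 0.274 (1 count) in tumor 4 and 3.73 (50 counts) in tumor 5. The log2 difference was 4.68 ± 1.11 (SE, edgeR adjusted p = 0.611, DESeq2 adjusted p = 0.219), and 8.44 without tumor 5. Controls had Hes1 at 5.83 to 7.63, in libraries with the high background above. The gene (ENSMUSG00000022528.7) spans 30064384 to 30067796 on chromosome 16.

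Dtx1, which encodes the ubiquitin ligase Deltex and is also a Notch target, had levels of 37.7, 86.3 and 44.3 in tumors 1, 2 and 6, and of 3.25, 11.2 and 0.814 in tumors 3, 4 and 5. The sets did not overlap, and the log2 difference was 3.41 ± 0.79 (SE, edgeR adjusted p = 0.555, DESeq2 adjusted p = 0.00132). Against the pooled level per length of the receptor genes, Dtx1 stood at 2.03, 5.49 and 9.15 times in tumors 1, 2 and 6. It stood at 0.395, 0.864 and 0.0919 times in tumors 3, 4 and 5. The spliced coding transcript Dtx1-201 had levels of 15.4, 44.7 and 27.2 in the high tumors, and 0, 2.54 and 0 in the low ones. What was left in the low tumors was assigned mostly to Dtx1-206, a retained-intron form, at 0.814 to 7.75. Dtx1 (ENSMUSG00000029603.15) lies at 120680202 to 120711927 on chromosome 5.

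Cd4, the coreceptor for major histocompatibility complex (MHC) class II, showed the opposite order. Its levels were 25.3, 19.6 and 34.4 in Notch1-high tumors and 290.0, 177 and 274 in Notch1-low tumors. The lowest of the 3 Notch1-low tumors had 5.16 times the level of the highest Notch1-high tumor, and the log2 difference was -3.47 ± 0.52 (SE, edgeR adjusted p = 0.333, DESeq2 adjusted p = 8.23e-08). Against the pooled level per length of the receptor genes, Cd4 stood at 1.77, 1.62 and 9.22 times in tumors 1, 2 and 6. It stood at 45.8, 17.8 and 40.1 times in tumors 3, 4 and 5, so Cd4 lay near that background in tumors 1 and 2. Controls had Cd4 at 18.1 to 35.8 in libraries with a higher background, so these values cannot be set directly against those of the tumors. Cd4 (ENSMUSG00000023274.14) spans 124864692 to 124888221 on chromosome 6.

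Ikzf2, which encodes Helios, a zinc-finger factor of the Ikaros family, had levels of 157, 136 and 152 in Notch1-high tumors and of 569, 791 and 604 in Notch1-low tumors. The spread within each set was small beside the gap, and the log2 difference was -2.37 ± 0.43 (SE, edgeR adjusted p = 0.444, DESeq2 adjusted p = 3.91e-05). The main coding transcript Ikzf2-201 had 133, 106 and 97.6 in the high and 363, 649 and 548 in the low tumors. Ikzf2 (ENSMUSG00000025997.13) spans 69531214 to 69687245 on chromosome 1. In each of these bulk samples, fewer cells of a kind and less RNA per cell cannot be told apart.

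**Figure D3:**
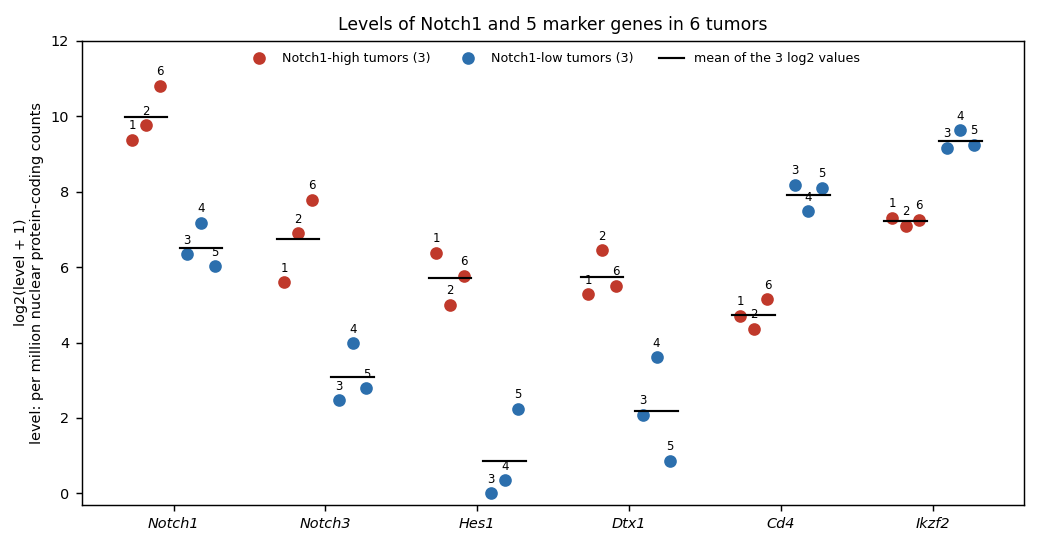
Points give log2(level + 1) of Notch1 and 5 genes in each of 6 tumors, numbered by tumor (red, Notch1-high; blue, Notch1-low), with level as CPM within nuclear protein-coding genes; lines are means of the 3 log2 values. For every gene shown the red and blue points do not overlap, and Notch1 itself chose the sets.

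The rest of the Notch pathway was described from lists of receptors, ligands, processing enzymes, nuclear partners and induced genes. Members of a list other than its 2 most highly expressed were named after their values were seen. The background to read each count against is the 7.89% of all genes that lay higher without overlap and the 4.11% that lay lower, with an overall median log2 difference of 0.04. Many list members are abundant, and among 7380 protein-coding genes with a mean level of at least 20 the order of these shares was turned round, at 5.75% higher and 6.78% lower, with a median of -0.30.

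Besides Notch3, the receptor Notch4 lay higher without overlap when its transcripts were summed, at 10.8, 10.6 and 7.04 against 4.86, 3.84 and 1.57. Its log2 difference was 1.28 ± 0.58. On the rescaled TPM of the coding transcript Notch4-201 the sets overlapped, at 0, 1.08 and 1.52 against 0.384, 0.499 and 0.340. Notch2 overlapped between the sets, at 40.0, 57.8 and 44.9 against 55.8, 73.5 and 10.3. Ligands were scarce, with Jag2 at 1.69 to 16.3 and Dll3 at 0.672 to 6.12 over the 6 tumors, and none of the 5 tested separated the sets. Among 14 genes of receptor processing and sugar transfer, 2 lay higher without overlap, both encoding Aph1, a gamma-secretase subunit. Aph1a had levels of 20.3, 16.7 and 14.6 against 8.19, 7.30 and 6.37, and Aph1b 9.97, 4.89 and 6.71 against 2.64, 1.53 and 1.19. Like those of Dtx4 and Heyl below, these low levels are not set gene by gene against the receptor background here. Adam10, the protease that makes the first cut in a ligand-bound receptor, had 165 to 174 in the high and 126 to 236 in the low tumors.

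In the nuclear complex and its brakes, 2 of 17 lay higher without overlap (Dtx4 and Numbl) and 1 lower (Snw1), and the list's median log2 difference was -0.35. Dtx4, a relative of Dtx1, had levels of 10.1, 10.9 and 8.88 against 1.90, 3.57 and 1.57. The coactivator Ep300 overlapped, at 162 to 280 in the high and 218 to 360 in the low tumors, as did Nedd4, a ubiquitin ligase that acts on Notch, at 124 to 445 and 326 to 391. No member of these 2 lists passed the adjusted threshold of edgeR or DESeq2.

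Of 20 Notch-induced genes, 17 passed the filter on low counts, and 6 of the 17 lay higher without overlap (Hes1, Heyl, Dtx1, Notch3, Igf1r and Deptor) and 1 lower (Tcf7). At an unadjusted p below 0.05, 8 were higher and 0 lower, with 0 past edgeR's adjusted threshold, and the list's median log2 difference was 0.44. The list was chosen with Notch results of these data known and is not independent evidence of a direction. Hes5, Hey1 and Nrarp were too low to test, Nrarp with levels of 10.4 in tumor 2 and at most 2.54 in the other 5.

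Igf1r, the receptor for insulin-like growth factor 1, had levels of 322, 62.9 and 393 in tumors 1, 2 and 6, and of 41.5, 41.9 and 16.1 in tumors 3, 4 and 5. Tumor 2 lay far nearer to the low tumors than to the other high ones, and the log2 difference was 2.84 ± 0.70 (SE, edgeR adjusted p = 0.659, DESeq2 adjusted p = 0.00441). Deptor, an inhibitory partner of mTOR, had 42.9, 95.8 and 33.8 against 14.1, 16 and 8.94. Heyl, a repressor related to Hes1, had 7.86, 19.5 and 10.8 against 2.54, 3.02 and 0.

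Of the other members, Tcf7 lay lower without overlap and the rest described here overlapped. Il2ra, the interleukin-2 receptor alpha chain, was highest in tumor 2 at 156, and lay at 22.3 and 30.6 in tumors 1 and 6 against 11.1, 26.1 and 11. Ptcra, the pre-T cell receptor alpha chain, had 4.79, 21.3 and 16.3 against 3.25, 4.88 and 3.45, so only tumor 1 reached the range of the low set. Myc overlapped, at 154, 186 and 190 against 275, 199 and 90.3 (edgeR adjusted p = 0.900). Cdk6 and Tcf7 were the most abundant of the list. Cdk6, a G1 kinase, had 315 to 1096 in the high and 857 to 923 in the low tumors, and Tcf7, a T lineage factor, had 745, 659 and 790.0 against 1285, 1143 and 1125.

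**Figure D4:**
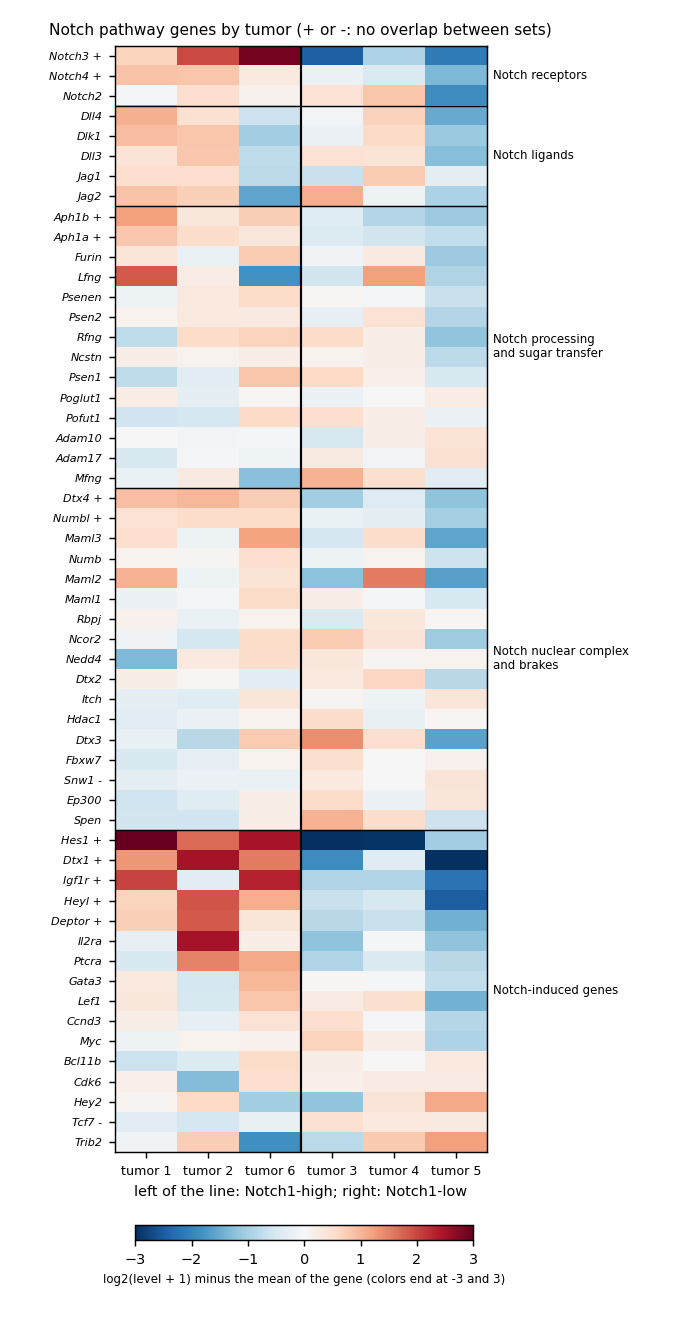
Colors give log2(level + 1) of each tested Notch pathway gene in each of 6 tumors, minus the mean of that gene, grouped by list and ordered within it by edgeR log2 difference. Plus and minus signs mark genes whose levels do not overlap between the 3 Notch1-high tumors (left) and the 3 Notch1-low tumors (right), of which 6 of 17 Notch-induced genes carry a plus.

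Promoter sequence was looked at for Notch-induced genes because several separated the sets together. The motif searched was the core RBPJ site TGGGAA, on both strands, so also TTCCCA, in the 250 bases before each RefSeq gene start of GRCm38.p6. It was present in 21.1% of 19865 promoters of nuclear protein-coding genes. Of 15 Notch-induced genes with a promoter in that table, 3 held it (Hes5, Hey2 and Ptcra). The table used here has no entry for Hes1, Cd4 or Ikzf2. The windows of Notch3 and Dtx1, whose levels did not overlap, and of Ptcra, which holds 2 matches, are shown to allow the comparison, 5′ to 3′ on the minus strand of each chromosome, with matches in capitals. They cover chr17:32166891-32167140, chr5:120711670-120711919 and chr17:46763713-46763962.
Notch3: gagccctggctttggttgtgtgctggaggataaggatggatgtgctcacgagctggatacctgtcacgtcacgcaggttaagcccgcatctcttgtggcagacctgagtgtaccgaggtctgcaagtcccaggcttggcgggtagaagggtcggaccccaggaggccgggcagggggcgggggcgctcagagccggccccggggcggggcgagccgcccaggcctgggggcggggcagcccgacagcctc
Dtx1: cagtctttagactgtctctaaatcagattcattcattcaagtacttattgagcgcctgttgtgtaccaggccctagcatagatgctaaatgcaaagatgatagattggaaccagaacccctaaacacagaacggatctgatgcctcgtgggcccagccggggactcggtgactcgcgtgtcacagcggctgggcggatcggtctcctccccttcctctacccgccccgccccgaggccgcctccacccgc
Ptcra: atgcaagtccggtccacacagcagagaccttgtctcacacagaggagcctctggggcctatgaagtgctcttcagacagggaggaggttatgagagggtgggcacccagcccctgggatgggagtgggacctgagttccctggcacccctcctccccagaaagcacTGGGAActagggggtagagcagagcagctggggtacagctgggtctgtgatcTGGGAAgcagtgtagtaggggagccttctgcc
The matches in Ptcra lie 84 and 32 bases before its start. The absence of a match in Notch3 and Dtx1 says only that these letters are not in these windows.

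Over all genes tested, in the pathway lists or not, those with the smallest unadjusted p were named by rule, 12 in each direction, from protein-coding genes with a mean level of at least 5 and no overlap. None passed edgeR's adjusted threshold (adjusted p 0.333 to 0.673). The 12 higher genes included Notch3, and the 12 lower genes included Cd4 and Ikzf2.

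Pdgfrb, the receptor tyrosine kinase for platelet-derived growth factor B, had levels of 350.2, 142 and 339.9 in tumors 1, 2 and 6 against 11.4, 12.9 and 1.72 in tumors 3, 4 and 5. Its log2 difference was 4.92 ± 0.75 (SE, edgeR adjusted p = 0.333, DESeq2 adjusted p = 3.19e-10). It is a common marker of fibroblasts and pericytes, and the fibroblast list had a summed level of 378 to 642 in the high and 110 to 425 in the low tumors with Pdgfrb in it. Pdgfrb itself made 350.2 of 642 in tumor 1, 142 of 446 in tumor 2 and 339.9 of 378 in tumor 6. In tumors 3, 4 and 5 it made 11.4 of 152, 12.9 of 425 and 1.72 of 110. Col1a2, a collagen of fibroblasts, overlapped between the sets, at 234, 128 and 23.4 against 71.4, 376 and 76.6. The part of fibroblasts or pericytes in the Pdgfrb difference was not tested. The median log2 difference of the 9 genes of the list was 0.78, with 7 positive and 1 of the 9, Pdgfrb, without overlap.

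Myh10, the heavy chain of nonmuscle myosin IIB, reached the highest levels of these genes, at 586, 278 and 1306 against 40.8, 29.1 and 5.08. Its log2 difference was 4.8 ± 0.89 (SE, edgeR adjusted p = 0.485, DESeq2 adjusted p = 6.19e-08). Tead1, a DNA-binding partner of the Hippo pathway's coactivators, had 82.4, 42.9 and 203 against 5.52, 7.21 and 2.09. Nrp1, a coreceptor for semaphorins and vascular endothelial growth factor, had 33.6, 96.0 and 40.0 against 5.50, 9.32 and 4.85. Arhgap5, which turns off small GTPases that act on actin, had 83.7, 63.2 and 128 against 8.87, 7.01 and 9.83. In these 4 genes the lowest Notch1-high tumor had 3.61 to 6.81 times the level of the highest Notch1-low tumor. Against the pooled level per length of the receptor genes, Tead1 nevertheless stood at 1.80 and 1.10 times in tumors 1 and 2. Arhgap5 stood at 1.95 and 1.74 times there, so both lay near that background in these tumors. Nrp1 stood at 2.00 times in tumor 1 and 6.76 times in tumor 2, and Myh10 at 16.3 and 9.15 times.

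Ifi202b, an interferon-inducible gene with near-identical neighbors that make its counts uncertain, had 40.0, 29.3 and 149 against 3.59, 1.37 and 1.49. Rassf10, a RAS-association domain gene, had 35.7, 4.59 and 81.4 against 1.06, 0.822 and 0.224, so tumor 2 lay close to the low set. Capn5, a calpain protease, had 21.9, 18.1 and 82.2 against 1.06, 1.92 and 0.597, and Susd4, a complement regulator, 23.8, 31.6 and 42.8 against 1.69, 1.10 and 0.149. Scn2b, a sodium channel subunit, had 35.4, 37.7 and 51.7 against 5.72, 3.43 and 3.03. Hfm1, a meiotic helicase, had 16.5, 27.0 and 36.4 against 1.48, 2.74 and 1.27. Controls, with their higher background, had Scn2b at 27.0 to 38.3 and Hfm1 at 16.8 to 24.4, close to tumors 1 and 2. Against the pooled level per length of the receptor genes, Scn2b stood at 1.65, 2.08 and 9.25 times in tumors 1, 2 and 6, and Hfm1 at 0.714, 1.38 and 6.05 times, so both lay near that background in tumors 1 and 2.

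Macf1, which links microtubules and actin, was the most abundant of the 12 lower genes, at 570, 459 and 432 in Notch1-high against 2152, 1760 and 1388 in Notch1-low tumors (log2 difference -2.09 ± 0.46, SE, edgeR adjusted p = 0.537, DESeq2 adjusted p = 0.000446). Cass4, an adhesion scaffold of the Cas family, had 7.45, 7.63 and 5.19 against 79.7, 32.0 and 115. Dock5, an activator of Rac, had 15.3, 20.8 and 6.23 against 94.3, 69.3 and 192. Iqgap2, a scaffold that binds actin, had 108, 86.1 and 104 against 263, 305 and 293.

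Lgals1, the galectin-1 gene, had 7.37, 18.7 and 5.49 in the high against 80.7, 28 and 87.7 in the low tumors. H2-D1, an MHC class I heavy chain whose reads are shared with close relatives and so uncertain, had 43.8, 30.4 and 27.5 against 60.3, 215 and 91.4. Hsd11b1, which regenerates active glucocorticoid, had 5.40, 7.18 and 3.24 against 18.2, 16.2 and 16.3. Rbpms, an RNA-binding protein gene, Ccdc186 and 3830406C13Rik complete the 12, with log2 differences of -2.03, -2.21 and -2.16.

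Cd4 and Cd8 are both expressed at the double-positive stage of thymocytes. Lists of coreceptors and their regulators and of that stage were read for this reason. Among 14 coreceptor genes and regulators, 2 lay lower without overlap (Cd4 and Satb1) and 0 higher, with a median log2 difference of -0.74. Cd8a overlapped, at 98.5, 179 and 22.4 against 167, 166 and 327, and so did Cd8b1 at 47.3, 59.5 and 29.1 against 72.6, 59.3 and 125. Per length, on the rescaled TPM of the longest coding transcript, Cd4-201 lay below Cd8a-201 in tumors 1 and 2 (5.16 and 4.96 against 14.5 and 31.7). It lay above it in tumors 3, 4, 5 and 6 (76.2, 60.2, 105 and 14.8 against 36.6, 49.1, 82.4 and 4.59). Tumor 6 thus had the lowest Cd8a-201 value. Its Cd4-201 value lay above those of tumors 1 and 2 and below those of tumors 3, 4 and 5. Satb1, a chromatin organizer of thymocytes, had levels of 697, 331 and 1146 against 1185, 1549 and 1486, and Myb, a T lineage factor, overlapped at 439 to 690.3 and 596 to 673.

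In the double-positive list of 17, 1 gene lay higher without overlap (Rag2) and 3 lower (Cd4, Satb1 and Ccr9), and the median log2 difference was -0.53. Rag2, a subunit of the recombinase that joins receptor segments, had 10.3, 19.7 and 22.1 against 3.16, 5.47 and 3.51. Its partner Rag1 overlapped, at 6.63, 57.7 and 144 against 3.80, 3.29 and 18.8. Ccr9, the receptor for the thymic chemokine Ccl25, had 145, 57.6 and 181 against 313, 453 and 655 (log2 difference -2.15 ± 0.61, SE, edgeR adjusted p = 0.726, DESeq2 adjusted p = 0.0329). Dntt, which adds bases at the joins, overlapped at 274 to 1748 and 114 to 880.2.

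Of the 5 Ikaros family genes, Ikzf2 alone lay apart, and 0 passed edgeR's adjusted threshold. Ikzf1, the Ikaros gene, had 652, 437 and 747 against 662, 966 and 928, and Ikzf3, the Aiolos gene, 310, 394 and 491 against 1059, 834 and 351. Both therefore overlapped, with log2 differences of -0.71 ± 0.48 and -1.06 ± 0.50.

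In the list of the T cell receptor and its proximal signaling, 2 of 17 lay higher without overlap, both CD3 chains, and 0 lower. Cd3e had 578, 356 and 817 against 182, 204 and 160.4 (log2 difference 1.49 ± 0.48), and Cd3d had 133, 132 and 135 against 57.5, 83.7 and 77.9 (0.62 ± 0.39). Trac, the T cell receptor alpha constant gene, overlapped at 229, 129 and 452 against 282, 265 and 166, as did Trbc2 and Ptprc, the CD45 gene. Trdc, the delta constant gene, which lies inside the alpha locus, had 261, 118 and 293 in the high tumors and 208 in tumor 5, against 1.05 (5 counts) in tumor 3 and 2.00 (7 counts) in tumor 4. It was thus nearly absent from 2 of the 3 Notch1-low tumors and present in the other. Sox13, a factor of gamma-delta T cells, lay higher without overlap at 83.7, 19.5 and 85.8 against 7.61, 16.4 and 5.68 (edgeR adjusted p = 0.673, DESeq2 adjusted p = 0.0223).

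The leading beta-chain and alpha-chain segments were read in each tumor. Trbv16 took the largest part of Trbv counts in Notch1-high tumors 2 and 6 (64.6%, 95% exact interval 57.4% to 71.3%, and 61.2%, 58.0% to 64.2%) and in Notch1-low tumors 3 and 5 (82.8%, 75.1% to 88.9%, and 93.2%, 89.7% to 95.8%). Trbv13-2 led in tumor 1 with 50% (44.4% to 55.6%) and Trbv19 in tumor 4 with 62.5% (58.5% to 66.4%). These intervals cover counting error only, and the leading Trbv segment did not follow the Notch1 sets. Among alpha-chain segments, Trav6-1 led in tumors 1, 2, 4, 5 and 6, with 38.5%, 31.6%, 18.2%, 62.6% and 79.1% of Trav counts. Trav7d-2 led in tumor 3 with 39.0%. The tumors share the strain label F5, and the part of the strain in these shared leading segments was not tested.

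Over all genes tested, 7.89% lay higher without overlap and 4.11% lower, shares at which short lists hold few such genes. In the early double-negative list 0 of 13 lay apart, and in the mature single-positive list 0 of 17. Counts this small do not set these stages apart from other genes. Of 10 genes of regulatory T cells and inhibitory receptors, Nrp1 lay higher and Pdcd1, the PD-1 gene, lower, at 20.4, 5.45 and 5.21 against 53.1, 29.9 and 40.0 (edgeR adjusted p = 0.693, DESeq2 adjusted p = 0.0424). Among 6 tested cytotoxic genes, Gzma, granzyme A, overlapped at 41.1 to 928 and 105 to 302.

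**Figure D5:**
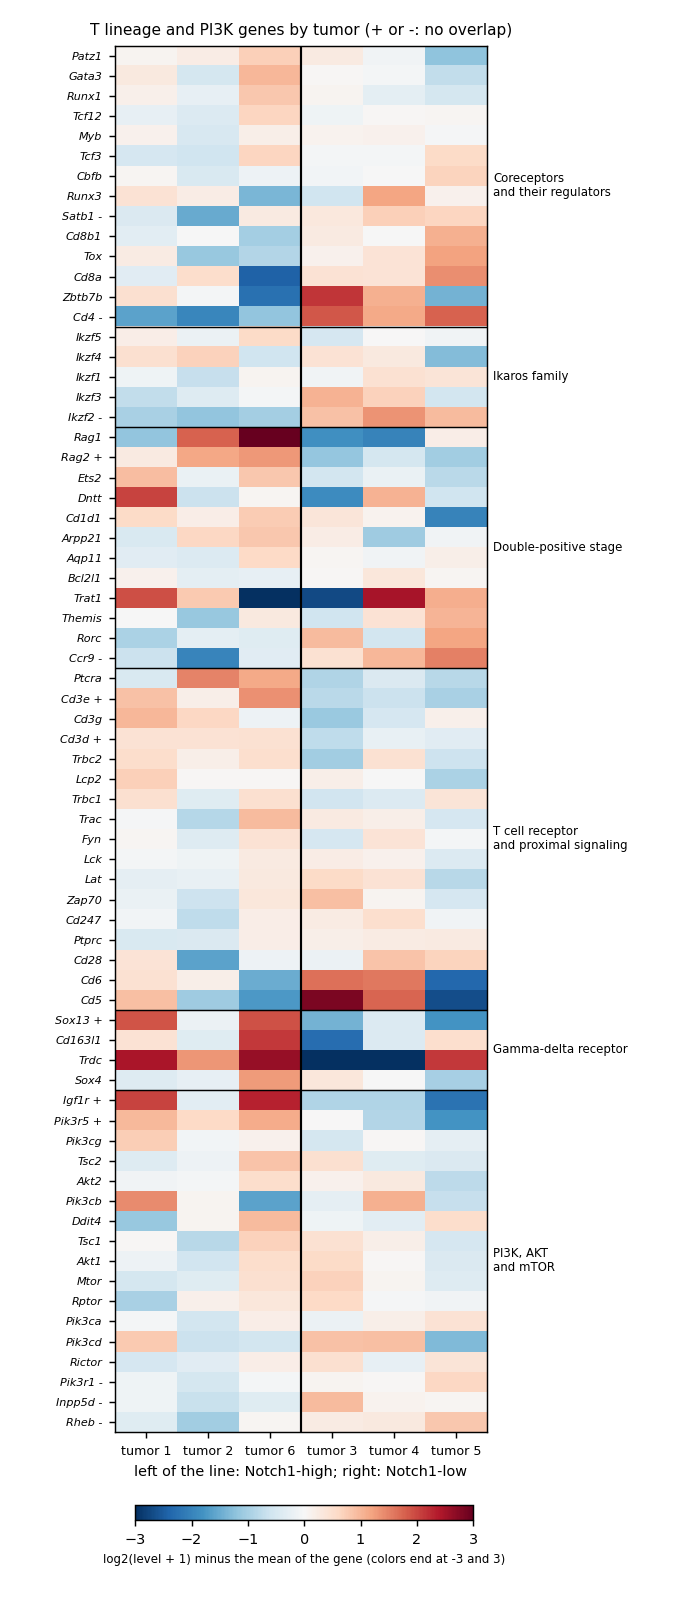
Colors give log2(level + 1) of each tested gene of 6 lists in each of 6 tumors, minus the mean of that gene, ordered within each list by edgeR log2 difference. Plus and minus signs mark genes without overlap between the 3 Notch1-high tumors (left) and the 3 Notch1-low tumors (right); Cd4 and Ikzf2 are low in all 3 tumors on the left.

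The PI3K and AKT pathway, which growth factor receptors and interleukin-7 feed, was described from 17 genes, of which 12 overlapped and 0 passed edgeR's adjusted threshold. In this list 2 lay higher without overlap (Igf1r and Pik3r5) and 3 lower (Pik3r1, Inpp5d and Rheb), and the median log2 difference was -0.28. Pik3r5, a regulatory subunit of PI3K gamma, had 71.2, 54.8 and 78.8 against 36.6, 19.1 and 9.62. Inpp5d, the SHIP1 phosphatase that opposes PI3K, had 55.8, 38.4 and 47.6 against 119, 66.1 and 64.1.

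Il7r, the gene the model induces, did not follow the sets, at 167, 679 and 73.5 in Notch1-high and 877, 157 and 183 in Notch1-low tumors (log2 difference -0.68 ± 0.86, SE, edgeR adjusted p = 0.885). The labels' construct was not told apart from the mouse gene in these counts. Of 12 genes of the receptor, JAK and STAT list, 2 lay lower without overlap and 0 higher. They were Stat5b, at 126, 126 and 161.0 against 229, 161.4 and 165, where tumors 6 and 4 were nearly equal, and Ptpn6, the SHP-1 phosphatase gene, at 85.1, 92.0 and 75.5 against 189, 104 and 207. Of 12 STAT5-induced genes, Pim1, a kinase gene, lay higher at 40.7, 21.3 and 30.4 against 8.08, 15.5 and 7.5.

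Of 21 T-ALL tumor suppressors, 3 lay lower without overlap and 0 higher. The first was Dnm2, the dynamin 2 gene, at 162, 155 and 234 against 405, 282 and 294. Eed, a Polycomb subunit, had 27.7, 41.0 and 52.3 against 73.6, 60.8 and 61.9. Cdkn2b had 3.44, 1.72 and 2.53 against 3.59, 7.13 and 5.90. Tumors 1 and 3 were nearly equal in Cdkn2b, with 14 and 17 counts, so its place among the 3 is within counting error. None of the 6 T-ALL oncogenes with enough counts to test lay apart. The median log2 difference of the tumor suppressor list was -0.56 and that of the oncogenes 0.07, and with library sizes set to nuclear protein-coding counts they were -0.24 and 0.30.

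Growth and division genes gave medians near those of other well-expressed genes. The median log2 difference was -0.44 over 20 MYC-induced growth genes, -0.29 over 20 G1-S genes and -0.39 over 20 G2-M genes, against -0.30 over 7380 protein-coding genes with a mean level of at least 20. With library sizes set to nuclear protein-coding counts, these 3 lists stood at -0.20, -0.0028 and -0.07, against -0.06 over the same 7380 genes and 0.25 over all genes. The same change moved the medians of the nuclear complex and its brakes to -0.17, of the coreceptors to -0.46, of the double-positive list to -0.28 and of the PI3K and AKT list to -0.11. Mki67, a marker of cycling cells, overlapped at 3090 to 4872 in the high and 3604 to 7753 in the low tumors. Interferon-induced genes had a median of 0.01 over 15 genes, and 0 of them lay apart.

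Of the most abundant members of the remaining lists, Pecam1 lay apart and the others described here overlapped between the sets. Cd24a, a glycoprotein of immature thymocytes, had 308 to 491 in the high and 228 to 1105 in the low tumors, and Cd28, a costimulatory receptor, 55.4 to 226 and 151 to 309. Jak1, a kinase of the interleukin-7 receptor, had 219 to 402 and 275 to 424, and the survival factor Mcl1 81.3 to 141 and 88.8 to 157. Rictor, an mTOR partner, had 135 to 219 and 161 to 266. The nucleolar gene Ncl had 2447 to 3365 and 2875 to 3439, and Npm1 1087 to 2485 and 1032 to 2009. Of the antigen presentation genes, Cd74 had 18.5 to 251 and 17.7 to 181. Pecam1, an adhesion molecule of endothelium and leukocytes, lay lower without overlap, at 949, 692 and 387 against 993, 1508 and 2157 (edgeR adjusted p = 0.865, DESeq2 adjusted p = 0.209), while Flt1, a vascular growth factor receptor of endothelium, had 3.75 to 25.9 and 1.17 to 19.2.

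Markers of other cells moved with the sets in part. All 11 tested macrophage genes had a positive log2 difference (median 1.27), and 2 lay higher without overlap. These were C1qa, a complement gene of macrophages, at 25.3, 6.89 and 3.10 against 2.11, 0.822 and 0.822, and Mrc1, the mannose receptor, at 58.7, 14.4 and 10.6 against 3.59, 9.32 and 7.24. The summed macrophage level was 393, 449 and 64.5 against 151, 92.4 and 130.1, so tumor 6 had the least of all 6 tumors. All 7 tested neutrophil genes were positive too (median 2.64), with S100a8 at 194 and S100a9 at 232 in tumor 2 and at most 14 in the other 5. B cell genes were highest in tumor 4, where Igkc, the kappa constant gene, had 268 against at most 4.23 elsewhere. Foxn1, the defining factor of thymic epithelium, had at most 6.82, and the erythroid genes summed to 5.89 to 32.4. The part of these other cells in the differences above was not tested.

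Sex-linked transcripts were unevenly spread over the sets. Xist, the X-inactivation RNA of female cells, had 2418 and 1850.0 in tumors 1 and 2 and at most 14.3 in the other 4. The Y gene Ddx3y had 138 and 148 in tumors 3 and 4 and at most 3.74 in the other 4, and the Y gene Eif2s3y had 120.1 and 143 in tumors 4 and 6 and at most 3.73 elsewhere. The Y gene Uty had 363, 219 and 153 in tumors 1, 2 and 6 and 197, 217 and 15.5 in tumors 3, 4 and 5, so its counts were high in the tumors with Xist too. No one of these patterns equals the Notch1 sets, and the part of sex in the differences was not tested.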

How the data were processed

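The labels' protocols describe 12 mouse thymus libraries of polyadenylated RNA, sequenced from both ends with 75-base reads. The authors deposited kallisto estimated counts for 128622 transcripts per library, per the file headers. The same deposited files hold TPM values (each transcript's length-scaled abundance), used here only to compare genes per length. Tools and build in the submitters' processing notes are FastQC, kallisto and mm10. Versions and annotation release: not given in the sources used here.

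Estimated counts were summed by gene symbol, rounded to whole numbers, and, as level, divided by a library's counts on 21884 nuclear protein-coding symbols. Notch1-high and Notch1-low tumors were compared with edgeR 4.0.16 in R 4.3.3 (quasi-likelihood F test, trimmed mean of M-values factors, filterByExpr by set, Benjamini-Hochberg adjustment over all genes tested). Notch1 itself was not tested, and its level was a term in 1 alternative only. The estimated counts that kallisto gives to near-identical genes are uncertain. Alternatives were DESeq2 1.42.0, limma 3.58.1, other scalings, filters and covariates, and leaving out each tumor. Tests were checked on simulated data. Coordinates come from GENCODE M21 of GRCm38, the assembly also called mm10, and promoters from RefSeq (GRCm38.p6).

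The tumors, gene lists and tests were chosen with earlier results of these data known. Named genes were Notch1 and 5 markers, the 12 with the smallest unadjusted p in each direction (protein-coding, mean level of at least 5, no overlap), since none passed the threshold, and the 2 most abundant of each list where none passed. Others were named after their values were seen. A few genes are not reported here and stay out of the lists' counts and medians. Intervals are 95% exact ones for counting error, and a count of 0 allows up to 3 counts. Tumors 7 to 9 and the controls enter no test.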

Additional observations from a re-analysis of the deposited data

Results flagged for a closer look

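Levels over the 6 tumors were checked for a sample far from the others, on log2(level + 1), for 81 genes and 4 library measures. The gap to the nearest tumor, as a part of the whole range, was above the limit for 6 samples (0.625) in 7 of 85, where chance flags about 1 in 20. Cdk6 and Myb lay lowest in tumor 2 (0.8015 and 0.6746 of the range), at 315 and 439. Notch2, Ly75 and Uty lay lowest in tumor 5 (0.6846, 0.6641 and 0.7231), at 10.3, 6.35 and 15.5. Nedd4 lay lowest in tumor 1 (0.7568), at 124. Igkc lay highest in tumor 4 (0.7044), at 268.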

How the results depend on the processing

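The count of 0 genes higher and 0 lower by edgeR stayed under RLE factors, library sizes from nuclear protein-coding counts, a mean level of at least 5, limma with voom weights, nuclear protein-coding genes only, and receptor background or mitochondrial percentage as a covariate. It became 199 higher and 122 lower without the filter on low counts, where 46745 genes were tested and 276 of the 321 called had also been tested with it. DESeq2 called 81 and 44. With log2 Notch1 level as a continuous term the count was 6 higher and 0 lower, a description only, since those Notch1 values chose the tumors. Leaving out each tumor in turn gave 0 higher and 0 to 1 lower, the 1 being Ddx3y without tumor 5. The cause of these differences in count was not tested. Without tumor 6, 13.6% of genes had an unadjusted p below 0.05, against 5.34% with all 6 and 3.17% to 6.89% without any other tumor.

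The log2 differences of Notch3, Hes1, Dtx1, Cd4 and Ikzf2 kept their sign under every alternative run that compared the sets, at 2.96 to 4.29, 4.22 to 8.44, 2.87 to 4.57, -3.93 to -3.17 and -2.58 to -2.08, and the highest adjusted p among these was 0.941. Over 119 named genes and 17 alternatives, 1883 of 1965 values kept their sign and 62, 3 of them with the Notch1 level as a term, passed an adjusted threshold that edgeR's fit did not. The other 82, in 26 genes, turned sign, 0 of them past the threshold, and the cause was not tested.

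With library sizes set to nuclear protein-coding counts the log2 difference became opposite in sign for Notch2 (0.038), Jag2 (0.10), Npm1 (0.15), Rrm1 (0.23) and Cd74 (0.16). Under limma with voom weights the log2 difference became opposite in sign for Notch2 (0.24), Ccl5 (0.019), Rrm1 (0.054), Mx1 (-0.45), Lyz2 (-0.066), H2-Aa (-0.11), S100a8 (-0.59), S100a9 (-0.0205), Ly75 (0.30) and Trac (-0.21). With log2 Notch1 level as a continuous term the log2 difference became opposite in sign for Notch2 (0.0402). With receptor background as a covariate the log2 difference became opposite in sign for Dll3 (-0.48), Npm1 (0.11), Rrm1 (0.33), H2-Aa (-0.84), Flt1 (-0.59), Klre1 (-0.46) and Eif2s3y (-0.77). With mitochondrial percentage as a covariate the log2 difference became opposite in sign for Dll3 (-0.092), Gzma (-0.48), Rrm1 (0.0024), Mx1 (-0.095), Lyz2 (-0.30), H2-Aa (-0.38), Flt1 (-0.13), Klre1 (-0.15), Trac (-0.078) and Eif2s3y (-2.09). Over genes above 3 times the pooled receptor background in at least 3 tumors, an alternative chosen after seeing the data, the log2 difference became opposite in sign for Npm1 (0.23), Rrm1 (0.30) and Cd74 (0.28). With a mean level of at least 5 the log2 difference became opposite in sign for Rrm1 (0.022) and Cd74 (0.072). With RLE factors the log2 difference became opposite in sign for Cd74 (0.012). Without the filter the log2 difference became opposite in sign for Cd74 (0.0017). With nuclear protein-coding genes only the log2 difference became opposite in sign for Cd74 (0.0055). Leaving out each tumor in turn gave values of both signs in the following genes. They ran from -0.55 to 0.28 for Notch2, -0.37 to 0.51 for Dll3, -0.56 to 0.71 for Jag2, -0.90 to 0.056 for Nedd4, -1.22 to 0.21 for Cd24a, -0.32 to 1.51 for Dntt and -0.18 to 1.11 for Gzma. Ranges were -2.32 to 1.00 for Ccl5, -0.57 to 0.77 for Sox4, -0.54 to 0.10 for Myc, -1.99 to 0.55 for Il7r, -0.54 to 0.29 for Npm1 and -0.35 to 0.44 for Rrm1. Ranges were -2.36 to 1.42 for Mx1, -0.74 to 0.86 for Lyz2, -1.03 to 0.67 for H2-Aa, -1.38 to 0.54 for Cd74, -3.05 to 4.18 for S100a8 and -2.86 to 4.17 for S100a9. Ranges were -0.22 to 0.72 for Alas2, -0.67 to 0.49 for Ly75, -1.37 to 0.29 for Col1a2, -0.34 to 0.62 for Flt1, -0.40 to 0.50 for Klre1, -0.81 to 0.40 for Trac and -3.95 to 5.22 for Eif2s3y.

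No paired analysis was possible because both sets lie within the tumor group and share no replicate numbers. With 3 tumors a set, and 1 count worth a level of 0.0747 to 0.287, precision of single genes is limited by the number of tumors and, for low genes in tumors 1, 2 and 4, by their 3483218 to 4071912 nuclear protein-coding counts.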

Other observations

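The surface receptors of the T cell receptor list, Cd5 and Cd6, which dampen receptor signals, shared a pattern with Trdc and Ddx3y rather than with Notch1. Cd5 had levels of 129 and 60.0 in tumors 3 and 4 and of 1.87 to 32.9 in the other 4 tumors. Cd6 had 134 and 128 in tumors 3 and 4 and 7.47 to 58.0 in the others. These are the tumors where Trdc was at 1.05 and 2.00 and Ddx3y at 138 and 148. This was noticed after the values were seen and was not tested.

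Median levels by chromosome, over protein-coding genes with a mean level of at least 20 and relative to all such genes, did not follow the Notch1 sets. On chromosome 15 (283 genes) they were -0.22, 0.15 and -0.11 on the log2 scale in Notch1-high tumors 1, 2 and 6, and 0.40, -0.17 and 0.08 in Notch1-low tumors 3, 4 and 5. On chromosome 11 (590 genes) tumor 2 stood at 0.22 and tumor 1 at -0.15. Chromosome 2 (640 genes), which carries Notch1, ran from -0.04 to 0.01.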
